A study of Arabidopsis thaliana with 15 samples.

Results

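The genes described are 10 expansins and expansin-like proteins of Arabidopsis thaliana, taken by their gene identifiers from a table of 14190 genes. They are EXLA1 (AT3G45970), EXLA2 (AT4G38400), EXLA3 (AT3G45960), EXLB1 (AT4G17030), EXPA1 (AT1G69530), EXPA3 (AT2G37640), EXPA4 (AT2G39700), EXPA5 (AT3G29030), EXPA8 (AT2G40610) and EXPA10 (AT1G26770). All 10 identifiers were in the table, and 9 passed the filter on low counts. EXPA8 did not pass, with 0 to 10 counts per library, and has no test. The genes were chosen by name, with their CPM levels and fold changes across these 5 groups already known. Their values and p-values are therefore a description of these libraries, and no count of members is evidence that expansins differ from other genes.

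Expansins are secreted proteins that loosen the plant cell wall without cutting its polymers, by weakening the contacts between cellulose and the matrix around it. They act in acid walls, so that proton pumping into the wall and expansins together allow cells to enlarge. The family holds alpha-expansins (EXPA), beta-expansins (EXPB) and the more distant expansin-like groups A and B (EXLA, EXLB), for which wall loosening has not been established.

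Transcripts were measured by bulk MARS-seq, which reads the 3' ends of polyadenylated RNA, in whole seedlings of the wild type Col-0 that were 2 weeks old. The 15 libraries form 5 groups of 3, namely untreated controls and seedlings given cercosporin, a light-activated toxin of Cercospora fungi, at 0.1, 1, 10 or 100 µM. The treated seedlings were in the toxin for 1 h in darkness, were washed 3 times in water and then had 30 min of light at 30 µE. The controls stayed in light throughout, so each comparison with them holds the toxin, the dark step and the washing together. Libraries of different doses had the same dark step, washes and light. Separate cultures for the replicates are not stated in the labels, and the p-values cover the spread between samples, possibly a technical one.

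Library totals lay between 834190 and 4554702 counts, and the 10 genes took 229 to 2733 counts per library. The 3 libraries of 100 µM stood apart from all others: component 1 of a principal component analysis held 51% of the variance, and on it they lay at 74.45 to 104.9 and the other 12 between -32.41 and -13.68. The first digit of the sample codes is 1 in all libraries of 100 µM, 8 in all of 10 µM and in control replicate 2, and 7 in the rest. What the digit stands for is not given in the labels. For 100 µM, digit and dose cannot be told apart. In bulk seedlings, fewer cells of a type and less RNA per cell cannot be told apart.

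At 100 µM, all 3 EXLA transcripts and the alpha-expansin EXPA5 stood below the controls in every library, as did 19.6% of all tested genes. EXLA2 was 12.5-fold lower, EXLA3 10.8-fold lower, EXPA5 7.6-fold lower and EXLA1 3.5-fold lower, while EXLB1 and the 4 other tested EXPA transcripts did not pass the test. By edgeR's quasi-likelihood test, adjusted over all 10374 genes tested, 4 of the 9 tested members fell and 0 rose. At this dose 32.7% of all tested genes were called, 14.6% lower and 18.1% higher. The members' median log2 fold change was -0.22, against -0.02 over all tested genes. All values that follow for single libraries are CPM, counts scaled to a common library total with TMM factors.

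EXLA2, in which mutants are known to respond differently to the fungus Botrytis cinerea, was at 164, 129 and 142 CPM in the 3 controls, 144, 133 and 135 CPM at 0.1 µM, 106, 93.7 and 94.9 CPM at 1 µM, 177, 114 and 170.5 CPM at 10 µM and 13.0, 10.8 and 11.0 CPM at 100 µM. The 100 µM libraries lay far below all 12 others, and those of 1 µM below all controls. EXLA2 averaged 11.6 ± 1.20 CPM at 100 µM and 145 ± 17.8 CPM in controls (SD, n = 3 each), a log2 fold change of -3.64 ± 0.21 (SE; edgeR adjusted p = 2.14e-09). Among the 4 members that fell, EXLA2 had the largest number of counts behind its values, 63 at 100 µM and 841 in the controls.

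EXLA3 was at 51.7, 53.1 and 61.5 CPM in the controls, 50.5, 45.2 and 56.1 CPM at 0.1 µM, 38.2, 27.4 and 29.7 CPM at 1 µM, 72.1, 72.8 and 64.3 CPM at 10 µM and 1.30, 4.91 and 7.56 CPM at 100 µM. The order of the group means followed that of EXLA2, with 100 µM lowest and 1 µM next. Neither of those groups overlapped any other. The libraries of 10 µM lay above the controls without overlap, but EXLA3 was not called there (log2 fold change 0.33 ± 0.23, SE; edgeR adjusted p = 0.959). The share of all tested genes separate in that way is not given here, so this separation stands without a background. At 100 µM the mean was 4.59 ± 3.14 CPM and in controls 55.4 ± 5.34 CPM (SD, n = 3 each), a log2 fold change of -3.44 ± 0.31 (SE; edgeR adjusted p = 2.80e-07).

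EXPA5, an alpha-expansin linked to brassinosteroid-driven growth, was at 35.1, 20.2 and 26.5 CPM in the controls, 24.4, 27.8 and 23.8 CPM at 0.1 µM, 19.7, 21.7 and 18.9 CPM at 1 µM, 29.1, 26.9 and 41.5 CPM at 10 µM and 3.89, 4.91 and 2.75 CPM at 100 µM. The 100 µM libraries again lay below all others, and the controls overlapped those of 0.1, 1 and 10 µM. The mean was 3.85 ± 1.08 CPM at 100 µM and 27.2 ± 7.47 CPM in controls (SD, n = 3 each), a log2 fold change of -2.93 ± 0.33 (SE; edgeR adjusted p = 2.46e-06).

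EXLA1 rested on few counts. It was at 5.54, 4.04 and 5.40 CPM in the controls, 4.11, 4.25 and 3.07 CPM at 0.1 µM, 1.79, 4.57 and 3.52 CPM at 1 µM, 5.06, 4.84 and 4.66 CPM at 10 µM and 2.60, 2.95 and 0 CPM at 100 µM. The last group did not overlap the controls, but it overlapped 1 µM, and its 3 libraries held 7 counts in all against 29 in the controls. The library with no count could hold up to 1.03 CPM, the value of 3 counts. The log2 fold change was -1.81 ± 0.70 (SE, n = 3 each; edgeR adjusted p = 0.049). The call was lost without 100 µM replicate 3 (log2 fold change -0.86, adjusted p = 0.243) and without any 1 of the controls (adjusted p = 0.0563 to 0.104), and also with the replicate number as a block (adjusted p = 0.0617) and by DESeq2 (adjusted p = 0.0638). In the TAIR10.1 annotation EXLA1 overlaps the histone H2B gene HTB9 (AT3G45980) on the opposite strand, and whether counting used strand is not given in the sources used here. HTB9 was at 754 ± 125 CPM at 100 µM and 503 ± 40.0 CPM in controls (SD, n = 3 each). The part of HTB9 reads in the EXLA1 values was not tested. EXLA1 and EXLA3 lie near each other on chromosome 3, with 1 annotated locus between them. No member had a near-identical copy at the 3' end of its transcript.

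**Figure D1:**
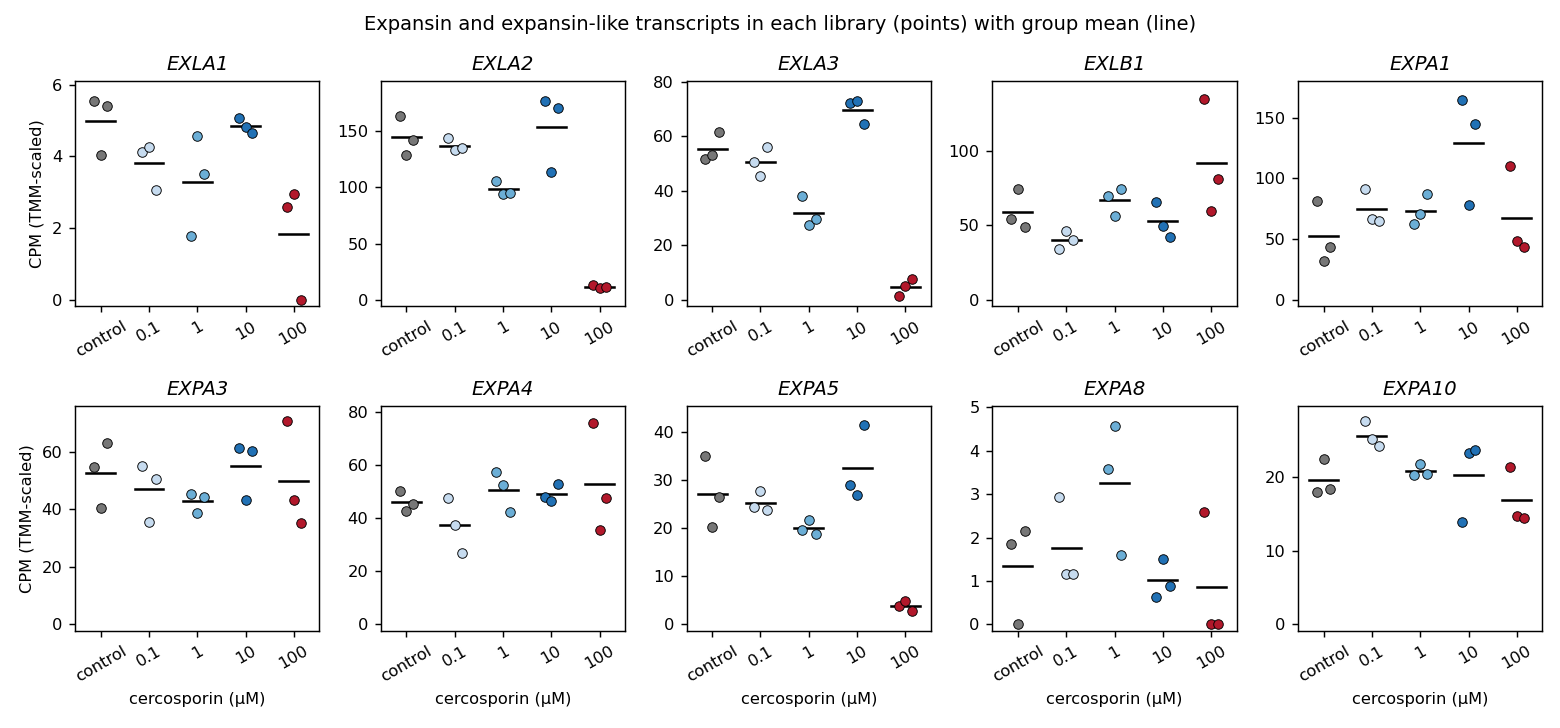
TMM-scaled CPM of the 10 genes (y axes, linear, 1 scale per gene) in each of the 3 libraries per group (points) with the group mean (line), for controls and cercosporin at 0.1, 1, 10 and 100 µM (x axes). EXLA2, EXLA3 and EXPA5 at 100 µM lie below every other library, at 10.8 to 13.0, 1.30 to 7.56 and 2.75 to 4.91 CPM, while EXLB1 and the other EXPA genes overlap between 100 µM and the controls.

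EXLB1 was the member with the highest 100 µM level relative to the controls. It was at 54.0, 74.4 and 48.6 CPM in the controls, 34.4, 46.4 and 40.0 CPM at 0.1 µM, 69.9, 56.0 and 74.5 CPM at 1 µM, 65.8, 49.6 and 42.3 CPM at 10 µM and 135, 59.9 and 81.5 CPM at 100 µM. The groups overlapped, since 100 µM replicate 2 lay below the highest control. The mean was 92.1 ± 38.6 CPM at 100 µM and 59.0 ± 13.6 CPM in controls (SD, n = 3 each), a log2 fold change of 0.65 ± 0.26 that missed the threshold (SE; edgeR adjusted p = 0.0612). It passed with upper quartile factors (adjusted p = 0.0399), without control replicate 2 (0.0369) and without 100 µM replicate 2 (0.0173), and without 100 µM replicate 1 it was 0.27 (adjusted p = 0.381).

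Of the EXPA members, EXPA5 was the single one called at 100 µM. EXPA3 averaged 49.8 ± 18.6 CPM at 100 µM and 52.8 ± 11.5 CPM in controls, and EXPA4 52.9 ± 20.8 CPM at 100 µM and 46.1 ± 3.87 CPM in controls (SD, n = 3 each). EXPA10, known from leaf growth, averaged 16.9 ± 3.95 CPM at 100 µM and 19.6 ± 2.50 CPM in controls. EXPA1, which takes part in stomatal opening, averaged 67.4 ± 37.3 CPM at 100 µM and 52.4 ± 26.1 CPM in controls. The groups overlapped in all 4, and the edgeR adjusted p-values lay between 0.509 and 0.802. In EXLB1, EXPA1, EXPA3, EXPA4 and EXPA10 replicate 1 was the highest of the 3 libraries of 100 µM, with 110.3 CPM of EXPA1 against 48.1 and 43.6 CPM in the other two. In EXLA3 the same library was the lowest. Within 100 µM the SD was 10.4% of the mean for EXLA2, 28.1% for EXPA5, 68.5% for EXLA3 and 87.1% for EXLA1. Among the other tested members it lay between 23.4% for EXPA10 and 55.3% for EXPA1.

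Summed over the 3 genes, EXLA transcripts took 16.9 to 18.7 CPM at 100 µM and 186 to 221 CPM in controls. The 6 EXPA members together took 144 to 285 CPM at 100 µM and 157 to 242 CPM in controls. The groups were separate for the EXLA sum and overlapped for the EXPA sum.

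Against the mean of the 3 lower doses, which had the same dark step and washes, the same 3 abundant transcripts fell at 100 µM. By edgeR, 3 of the 9 tested members were lower and 1 was higher, where 42.3% of all tested genes were called, 19.2% lower and 23.1% higher. EXLA2 was at -3.45 ± 0.20, EXLA3 at -3.24 ± 0.29 and EXPA5 at -2.82 ± 0.30 (log2 fold change, SE; 3 libraries against 9; edgeR adjusted p = 3.44e-10, 6.37e-08 and 5.18e-07). For these 3 genes, every library of 100 µM lay below every library of 0.1, 1 and 10 µM, which was the case for 12.7% of all tested genes. EXLB1 was higher, at 0.83 ± 0.20 (adjusted p = 0.0029), though 100 µM replicate 2 lay within the range of the lower doses. EXLA1, at -1.44 ± 0.62, missed the threshold (adjusted p = 0.0639). Without 100 µM replicate 1, 6 members were lower and 0 higher, and EXLB1 was at 0.46 (adjusted p = 0.0607). This comparison and the one with the controls share the 100 µM libraries.

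**Figure D2:**
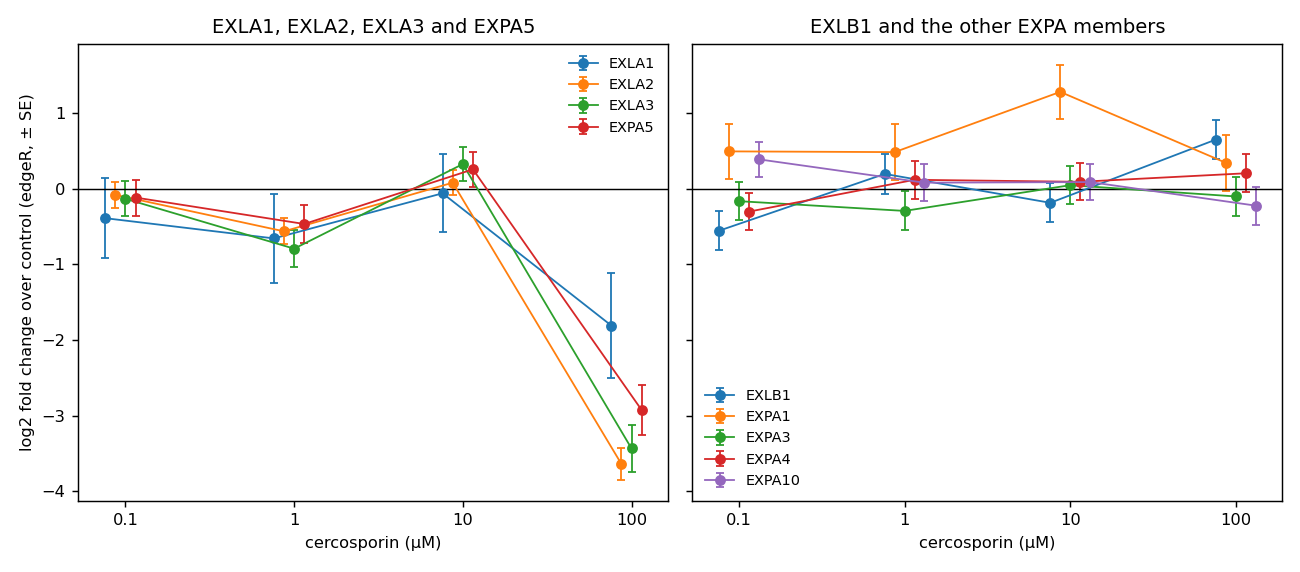
edgeR log2 fold change over the controls (y axis, ± SE, 3 libraries per group) at each cercosporin dose (x axis, evenly spaced steps) for the 4 members called at 100 µM (left) and the 5 other tested members (right). At 100 µM EXLA2 is at -3.64, EXLA3 at -3.44, EXPA5 at -2.93 and EXLA1 at -1.81, at 1 µM EXLA2 is at -0.56 and EXLA3 at -0.79, and EXPA1 at 10 µM is at 1.28. All 4 doses share the same controls.

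The lower doses did not form a steady series for the EXLA genes. The group means of EXLA2 stood, from high to low, in the order 10 µM, controls, 0.1 µM, 1 µM and 100 µM, and EXLA3 and EXPA5 had the same order. For EXLA2 the libraries of neighbouring groups overlapped from 10 µM down to 0.1 µM, while 1 µM and 100 µM were each separate from the group above. For EXPA5 the same neighbours overlapped and the same were separate. For EXLB1, EXPA1, EXPA3 and EXPA4 all neighbours in the order overlapped. For EXPA10, 0.1 µM (24.2 to 27.6 CPM) was highest and lay above 1 µM, the next, without overlap. How many of all tested genes were separate in that way was not counted. EXPA8 ranged from 0 to 4.57 CPM with all neighbours overlapping.

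At 1 µM, 0 of the 9 members were called against the controls by edgeR, where 0.183% of all tested genes were called, and 2 had an unadjusted p under 0.05. These were EXLA2 at -0.56 ± 0.17 (edgeR adjusted p = 0.341) and EXLA3 at -0.79 ± 0.25 (adjusted p = 0.348). EXLA2 averaged 98.1 ± 6.60 CPM at 1 µM and 145 ± 17.8 CPM in controls, and EXLA3 31.8 ± 5.68 CPM at 1 µM and 55.4 ± 5.34 CPM in controls (SD, n = 3 each). In both genes all 3 libraries of 1 µM lay below all controls, as in 7.23% of all tested genes. EXLA3 passed by DESeq2 (adjusted p = 0.0483) and with the 100 µM libraries left out of the fit (adjusted p = 0.0468), and over all alternatives its adjusted p lay between 0.0468 and 0.818.

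At 10 µM, 0 of the 9 members were called against the controls by edgeR or by DESeq2, where 0.00964% of all tested genes were called by edgeR. The 1 member with an unadjusted p under 0.05 was EXPA1, at 1.28 ± 0.36 (SE; edgeR adjusted p = 0.737). EXPA1 was at 81.7, 31.7 and 43.7 CPM in the controls, 91.3, 66.9 and 64.9 CPM at 0.1 µM, 62.7, 70.9 and 86.9 CPM at 1 µM, 165, 78.3 and 145 CPM at 10 µM and 110.3, 48.1 and 43.6 CPM at 100 µM. The controls and 10 µM overlapped, since control replicate 1 lay above 10 µM replicate 2. In a fit that includes the code digit, in effect a comparison with control replicate 2 alone, the value was 2.02 (adjusted p = 0.38). At 0.1 µM, 0 members were called by edgeR or by DESeq2, where 0% of all tested genes were called by edgeR, and 1 had an unadjusted p under 0.05, EXLB1 at -0.55 ± 0.26 (adjusted p = 0.897). EXLB1 averaged 40.2 ± 6.01 CPM at 0.1 µM and 59.0 ± 13.6 CPM in controls (SD, n = 3 each), without overlap, as 5.87% of all tested genes did in this direction.

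Between 10 µM and 1 µM, EXLA3 was the member called. It averaged 69.7 ± 4.73 CPM at 10 µM and 31.8 ± 5.68 CPM at 1 µM (SD, n = 3 each), a log2 fold change of 1.12 ± 0.24 (SE; edgeR adjusted p = 0.034), so 1 of 9 members rose where 0.887% of all tested genes were called, 0.569% higher. EXLA2 was at 0.64 ± 0.17 (adjusted p = 0.0928), EXPA5 at 0.72 ± 0.25 (adjusted p = 0.216) and EXPA1 at 0.80 ± 0.35 (adjusted p = 0.399), all past an unadjusted p of 0.05 alone. EXLA2 was called by DESeq2 (0.64, adjusted p = 0.0407), with the 100 µM libraries left out of the fit (0.64, adjusted p = 0.0477) and without 10 µM replicate 2 (0.82, adjusted p = 0.0254). In EXLA2, EXLA3 and EXPA5 every library of 10 µM lay above every library of 1 µM and likewise in EXLA1, as in 10.5% of all tested genes. The call of EXLA3 was lost when any 1 of these 6 libraries was left out (adjusted p = 0.0698 to 0.185), after all libraries were thinned to equal totals (0.0639) and in a fit that includes the code digit (0.373), and its log2 fold change stayed between 0.97 and 1.28. The 2 doses differ in the code digit of every library. The fit with the digit takes its effect from control replicate 2 against the other controls alone, so it cannot separate digit and dose reliably. Markers of root hairs differed as well: the 8 of 9 listed genes in the table summed to 34.4 to 42.4 CPM at 10 µM and 89.1 to 115 CPM at 1 µM, and 2 of 7 tested fell, PRP3 (-2.16 ± 0.34, adjusted p = 0.00438) and XTH14 (-1.67 ± 0.30, adjusted p = 0.00879), where 0.318% of all tested genes fell. The part of the code digit and of the root hair share in the EXLA3 value was not tested.

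Of 26 further expansin genes 13 were in the table and 10 passed the filter, and of these 1 rose and 1 fell against the controls by edgeR, with a median log2 fold change of -0.10. Over all tested genes 18.1% rose and 14.6% fell in that comparison. EXPA7, an alpha-expansin of root hairs, was at 20.8, 7.86 and 9.28 CPM at 100 µM and at 4.15, 5.77 and 5.94 CPM in controls (log2 fold change 1.26 ± 0.44, adjusted p = 0.0323). EXPA16 was at 6.49, 8.84 and 16.8 CPM at 100 µM and at 31.4, 15.6 and 33.5 CPM in controls (-1.22 ± 0.35, adjusted p = 0.0113). Whether the members differ from the other expansins was not tested. Against the lower doses EXPA7 (1.09 ± 0.33, adjusted p = 0.0124) and EXPA9 (0.78 ± 0.25, adjusted p = 0.0173) rose and EXPA13 (-0.85 ± 0.25, adjusted p = 0.0106) and EXPA15 (-1.33 ± 0.46, adjusted p = 0.0242) fell, where 42.3% of all tested genes were called. None of these 10 genes was called by edgeR at 0.1, 1 or 10 µM against the controls, and 0 of them had an unadjusted p under 0.05 there.

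**Figure D3:**
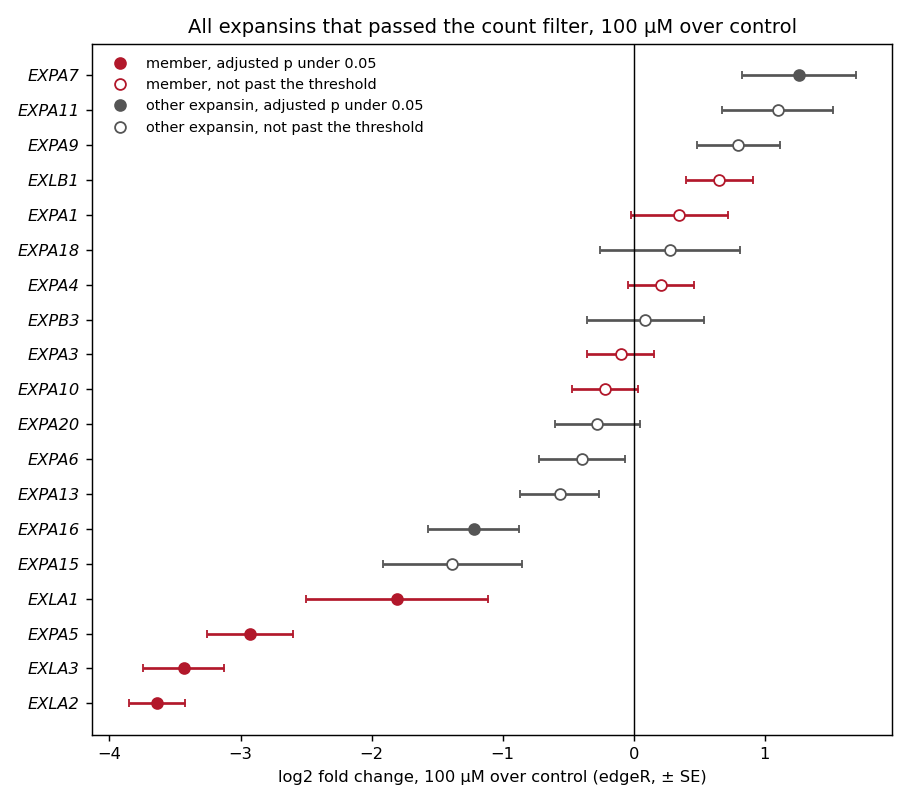
edgeR log2 fold change of 100 µM over controls (x axis, ± SE, 3 libraries per group) for the 19 expansins that passed the count filter (rows, from the highest to the lowest); red, the 9 tested members; grey, the 10 others; filled, adjusted p under 0.05 over all genes. EXLA2, EXLA3, EXPA5 and EXLA1 hold the 4 lowest places, and EXPA7, at 1.26, the highest.

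Genes that set the wall pH at which expansins act were counted beside them. Of 14 acid growth genes 7 were tested, and 1 rose and 1 fell at 100 µM against the controls by edgeR, where 32.7% of all tested genes were called. AHA2, a plasma membrane proton pump, was at 175 ± 57.0 CPM at 100 µM and 92.5 ± 34.1 CPM in controls (SD, n = 3 each; log2 fold change 0.93 ± 0.28, adjusted p = 0.0158). PP2C-D1, a phosphatase of the group that switches such pumps off, was at 39.8 ± 17.3 CPM at 100 µM and 88.0 ± 31.6 CPM in controls (-1.14 ± 0.35, adjusted p = 0.0188). In AHA2 and PP2C-D1 the libraries of 100 µM and the controls overlapped. The pumps AHA1 (-0.57 ± 0.22, edgeR adjusted p = 0.0511) and AHA3 (-1.05 ± 0.48, adjusted p = 0.104) were not called. Their libraries of 100 µM lay below all controls, as in 19.6% of all tested genes. Against the lower doses, where 42.3% of all tested genes were called, AHA2 (0.94 ± 0.22, adjusted p = 0.00177) and the phosphatase PP2C-D6 (0.49 ± 0.19, adjusted p = 0.0407) rose. The phosphatases PP2C-D1 (-1.57 ± 0.31, adjusted p = 0.000456) and PP2C-D2 (-0.41 ± 0.16, adjusted p = 0.0471) and the proton pump AHA3 (-1.10 ± 0.41, adjusted p = 0.0381) fell. The 100 µM libraries were uneven in 2 of these genes. AHA3 was at 1.30, 35.4 and 47.1 CPM, with 2 counts in replicate 1, and PP2C-D6 at 104, 207 and 242 CPM. Among 8 tested growth regulators known to act on expansin genes or upstream of them, 1 rose and 2 fell against the controls, beside the same 32.7% of all tested genes called. The rise was that of the growth-promoting factor PIF4 (0.88 ± 0.32, adjusted p = 0.0433), and the falls were those of the auxin response factor ARF7 (-0.81 ± 0.19, adjusted p = 0.0029) and of the DELLA growth repressor RGA (-0.57 ± 0.18, adjusted p = 0.0187). Without being called, PIF4 was as far above the controls at 0.1 µM (0.95 ± 0.31) and 1 µM (0.95 ± 0.32), and at 0.41 ± 0.32 at 10 µM. For 100 µM against the lower doses it was at 0.11 ± 0.25. Against the lower doses 0 rose and 3 fell, namely ARF7 (-0.54 ± 0.16, adjusted p = 0.0107), RGA (-0.59 ± 0.15, adjusted p = 0.00355) and the DELLA repressor GAI (-0.68 ± 0.20, adjusted p = 0.0113). Nothing particular to either list is read from these counts. At 0.1, 1 and 10 µM against the controls edgeR called 0 genes of either list, with 0 acid growth genes and 2, 1 and 1 regulators at an unadjusted p under 0.05.

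Markers of 2 cell types in which expansins are known to act were counted as well, beside 18.1% of all tested genes that rose and 14.6% that fell at 100 µM against the controls. Of 7 tested root hair markers 3 rose and 0 fell, namely EXPA7, MOP10 (1.34 ± 0.39, adjusted p = 0.0131) and XTH14 (0.80 ± 0.29, adjusted p = 0.0414). The 8 listed root hair genes in the table, tested or not, summed to 57.9 to 140 CPM at 100 µM and 50.8 to 64.8 CPM in controls. A higher sum was not particular to 100 µM. It was 93.1 to 102 CPM at 0.1 µM and 89.1 to 115 CPM at 1 µM, above all controls. At 10 µM it was 34.4 to 42.4 CPM, below them. Of 3 tested guard cell markers 2 fell and 0 rose, FAMA (-0.61 ± 0.20, adjusted p = 0.0284) and HT1 (-1.47 ± 0.39, adjusted p = 0.0066). The 4 listed guard cell genes in the table, tested or not, summed to 143 to 356 CPM at 100 µM and 309 to 458 CPM in controls. Both sums overlapped between 100 µM and the controls, and their part in the expansin values was not tested.

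The genes most like the leading member of each group were found by the root mean square difference of log2 CPM, centred per gene, over the 15 libraries. Nearest to EXLA2 were AT4G32800 (0.238), the arabinogalactan protein gene AGP18 (0.243) and AT1G51090 (0.27), followed by AT2G35290 (0.328), listed as SAUR79, and AT4G35320 (0.339). Their log2 fold changes at 100 µM against the controls lay between -3.90 and -3.17. Among the members, EXPA5 (0.425) and EXLA3 (0.474) were nearest to EXLA2, and EXLB1 (1.71) was farthest from it. For EXLB1 the nearest genes were CLT3 (0.238), PHOT1 (0.254), OXP1 (0.259), PHT2;1 (0.263) and APRR2 (0.263), and for EXPA1 AT5G20820 (0.292), AT5G28300 (0.363), FP3 (0.37), AT2G13690 (0.384) and AT1G12500 (0.392).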

How the data were processed

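Per the labels' protocols, RNA was extracted with Trizol, made into bulk MARS-seq libraries and sequenced on a NextSeq 500. Per the submitters' processing notes, bcl2fastq 2.17.1.14, cutadapt 1.8.3, STAR, HTSeq and DESeq2 were used. The deposited table holds raw counts per gene. Per the file headers and name, they were not filtered on unique molecular identifiers, so copies made by amplification are included. The floor given for a library with no count covers counting error only. The genome build is not given in the sources used here, so no coordinates are printed. The table's columns were matched to samples by the sample codes, and 0 sample columns belonged to a sample without a label. Columns of normalized and transformed values for the same samples were not used.

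Counts were tested with edgeR 4.0.16 in R 4.3.3: TMM factors, filterByExpr by group, and glmQLFit and glmQLFTest with a group term over all 15 libraries, with Benjamini-Hochberg adjustment over 10374 genes and a threshold of 0.05. Standard errors were taken from the unshrunken coefficient and the F statistic. The same steps were tested on simulated counts. The likeness measure used log2 of CPM plus 1. Names of listed genes were written by hand and set beside the RefSeq table of TAIR10.1, from which the other names came. That table does not hold the names PP2C-D1 (AT5G02760), PP2C-D2 (AT3G17090) and PP2C-D6 (AT3G51370). For some genes, such as EXPA3 (EXP3 there) and ARF7 (NPH4 there), its symbol differs. Copies were alignments of at least 75 bases at 90% identity between the last 500 bases of transcripts. All 10 members are named. Other listed genes are named where called in at least 1 of 6 comparisons, and the pump AHA1 is named beside AHA2. The members and lists were chosen with earlier results of these data known. A planned motif search in promoters and proteins was not run. Same-numbered replicates were not paired by the labels, and their deviations from the group means correlated between -0.0872 and 0.268. Alternatives were DESeq2 1.42.0, limma-voom (limma 3.58.1), RLE and upper quartile factors, no filter, only the groups compared, no 100 µM libraries, thinning, the replicate block, the code digit, each library left out, and no genes with copies.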

Additional observations from a re-analysis of the deposited data

How the results depend on the processing

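The falls of EXLA2, EXLA3 and EXPA5 at 100 µM kept their direction and stayed past the threshold under all 15 alternatives against the controls and all 21 against the lower doses. Against the controls their log2 fold changes lay between -3.74 and -3.57, -4.30 and -3.05, and -3.12 and -2.30. The number of members called at 100 µM was 3 to 5 against the controls (3 to 5 with 1 library left out) and 4 to 6 against the lower doses (4 to 6). At 1 µM against the controls 0 members were called, but 1 by DESeq2 and 1 without the 100 µM libraries, EXLA3 both times. At 10 µM against 1 µM 1 member was called, but 0 in a fit with the code digit, 0 after thinning, 2 by DESeq2 and 2 without the 100 µM libraries, and 0 to 1 with 1 library left out; the cause was not tested. The second member in both counts of 2 was EXLA2, which was also the 1 member called without 10 µM replicate 2, where EXLA3 was lost. With the replicate block 3 members were called at 100 µM against the controls, EXLA1 being lost at a log2 fold change of -1.80 against -1.81 without the block, and no other call of a member changed. The numbers are not shown to pair the samples. With RLE and upper quartile factors EXLA1 missed the threshold too (adjusted p = 0.0533 and 0.0594). For 100 µM no fit with the code digit was possible. EXLA1 and EXPA8 are limited by depth, and after thinning EXLA1 no longer passed the filter. Single-gene values were followed only where the unadjusted p of the main edgeR fit was under 0.05. Of these, no direction turned, and the directions of the smaller fold changes were not checked.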
